A study of Homo sapiens with 12 samples.

Results

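A set of 42 genes that act in mitosis and at the centromere was followed through RNA-seq libraries of human gastric cancer cells in which the zinc-finger gene ZNF165 had been knocked down or overexpressed. The 42 genes were listed by symbol, and each matched a single identifier among the 50868 gene identifiers of the count table. The study compared MKN28 cells, an established gastric cancer line, given a lentivirus with siRNA against ZNF165 (genotype ZNF165 knockdown) with MKN28 cells given a control lentivirus, and MKN45 cells, another gastric cancer line, given a lentivirus carrying ZNF165 (genotype ZNF165 Overexpression) with MKN45 cells given a control lentivirus. Control cells of both lines have the genotype WT, all 4 groups carry a lentivirus, and each group holds 3 libraries of total RNA. For knockdown replicates 2 and 3 the description mentions ZNF166 or ZNF167, but the genotype of both is ZNF165 knockdown, and they were grouped by genotype. Nothing in the labels says whether replicates were separate cultures, so p-values here reflect variation among libraries that may be purely technical.

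Mitosis begins when CDK1 bound to a B-type cyclin switches on the kinases that condense chromosomes and build the spindle. Kinetochores then form on centromeres that carry the histone variant CENPA, the spindle checkpoint holds cells back until every kinetochore is attached, and the anaphase promoting complex finally removes cyclin B and securin so that sister chromatids part. Most of these genes are transcribed late in the cell cycle by MuvB complexes with B-MYB and FOXM1, which reach promoters through the cell cycle homology region, a short element usually placed near a CCAAT box. In bulk RNA, fewer cells in mitosis and less of a transcript per mitotic cell cannot be told apart.

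The promoters of the set were read from RefSeq (GRCh38.p14), where 35 of the 42 genes had an entry. Within 250 bases before and 50 bases after the start, a cell cycle homology region (TTTGAA or TTCGAA, either strand) was present in 28 of the 35 promoters, against 16.4% of all 35116 promoters in the same table. The CCAAT box (CCAAT, either strand) was likewise present in 28 of 35, against 34.6% of all promoters, and both elements together stood in 23 (65.7%), against 6.38%. E2F-like letters (TTTCGCGC, TTTCCCGC, TTTGGCGC or TTTGCCGC, either strand) were found in 3 promoters, or 8.57%, against 3.31%. By response to the knockdown described below, the cell cycle homology region was present in 5 of 6 higher, 9 of 10 lower and 14 of 19 remaining promoters. A match is a description of the letters and not evidence of binding. To show these elements in genes called in opposite directions, 120 bases (90 before and 30 after the start) are printed for PLK1, CDC20 and CDCA8, which were higher in the knockdown, and for BUB1B, BUB1, KIF11 and MKI67, which were lower. Capitals mark the cell cycle homology region and the CCAAT box on either strand, so that TTCAAA and ATTGG are their reverse complements.
PLK1: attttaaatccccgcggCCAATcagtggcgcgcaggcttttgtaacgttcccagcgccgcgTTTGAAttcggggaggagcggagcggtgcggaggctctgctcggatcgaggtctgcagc
CDC20: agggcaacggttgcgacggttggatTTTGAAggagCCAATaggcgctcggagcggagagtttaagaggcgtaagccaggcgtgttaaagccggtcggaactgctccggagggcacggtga
CDCA8: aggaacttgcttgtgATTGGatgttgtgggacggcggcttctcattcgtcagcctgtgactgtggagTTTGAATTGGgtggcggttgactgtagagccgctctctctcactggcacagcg
BUB1B: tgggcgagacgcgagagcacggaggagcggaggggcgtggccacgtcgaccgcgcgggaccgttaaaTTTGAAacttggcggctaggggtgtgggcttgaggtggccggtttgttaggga
BUB1: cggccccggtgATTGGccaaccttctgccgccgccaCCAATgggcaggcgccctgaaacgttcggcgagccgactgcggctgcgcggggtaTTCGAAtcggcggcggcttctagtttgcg
KIF11: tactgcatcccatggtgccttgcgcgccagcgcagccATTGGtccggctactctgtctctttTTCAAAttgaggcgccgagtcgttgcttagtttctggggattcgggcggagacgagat
MKI67: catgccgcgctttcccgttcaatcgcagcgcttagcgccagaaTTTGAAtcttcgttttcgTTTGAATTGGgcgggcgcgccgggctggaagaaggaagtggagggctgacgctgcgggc
The windows lie at chr16:23678799-23678918 on the plus strand (PLK1), chr1:43358891-43359010 on the plus strand (CDC20), chr1:37692426-37692545 on the plus strand (CDCA8), chr15:40160979-40161098 on the plus strand (BUB1B), chr2:110678034-110678153 on the minus strand (BUB1), chr10:92593040-92593159 on the plus strand (KIF11) and chr10:128126394-128126513 on the minus strand (MKI67). In CDCA8 and MKI67 a cell cycle homology region runs directly into a reverse CCAAT box, and their matches share a base. Within the printed windows the arrangement differs between genes. In PLK1 the CCAAT box lies before the cell cycle homology region and in CDC20 after it. In BUB1 the cell cycle homology region lies just after the start, and in BUB1B the window holds that region alone. Before its printed window CDC20 has another cell cycle homology region (−178 to −173) and another CCAAT box (−100 to −96).

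ZNF165 itself had 74, 40 and 22 counts in knockdown replicates 1 to 3, against 262, 186 and 287 in MKN28 controls, and 2115, 1977 and 1909 counts in overexpression libraries, against 156, 140 and 277 in MKN45 controls. Libraries held 12075813 to 19548445 counts, and values below are CPM, counts divided by the library total on a common scale, after TMM scaling within the line. Long transcripts made up less of the knockdown libraries: the Spearman correlation of CPM with transcript length across genes was −0.00228, −0.106 and −0.112 there, against 0.321, 0.219 and 0.326 in MKN28 controls. Replicate 2 of the MKN45 controls stood apart from its group at 0.0904, against 0.246 and 0.193 in the other MKN45 controls. All 8 epithelial markers of the cell type check had counts in every group. Summed levels of this and the other marker lists are CPM without TMM scaling. The epithelial list summed to 14690 to 39680 CPM in knockdown, 7344 to 7918 in MKN28 control, 5111 to 7945 in overexpression and 5539 to 9973 in MKN45 control libraries. The fibroblast list summed to 27.2 to 44.0 CPM in knockdown, 89.0 to 122 in MKN28 control, 21.9 to 26.4 in overexpression and 17.3 to 18.7 CPM in MKN45 control libraries, and the endothelial list stayed at or below 2.16 CPM. The leukocyte list summed to 2.32 to 3.76 CPM in knockdown and 0.227 to 0.642 in MKN28 controls, and to 160 to 242 in overexpression and 99.4 to 134 CPM in MKN45 controls, with its defining marker PTPRC at 0 in both MKN45 groups. The part of these lists in the results was not tested.

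In the ZNF165 knockdown the mitotic genes split rather than moving as a block. Higher genes included 2 of 4 in the passenger complex and 3 of 6 that act at anaphase or on cohesion, among them UBE2C (7.06-fold), BIRC5 (5.05-fold) and CDCA8 (4.98-fold), and the kinase PLK1 (4.79-fold). Lower genes included both of chromosome structure, 2 of 5 in the checkpoint, 2 of 8 at the kinetochore and 3 of 6 in the spindle, among them TOP2A (21.8-fold lower), CENPE (19.9-fold lower) and BUB1B (14.6-fold lower). All 42 genes passed the filter on low counts. Of these, 8 were higher, 10 were lower and 24 did not pass (quasi-likelihood test of edgeR, with p-values adjusted by Benjamini-Hochberg over all 14939 genes tested and a threshold of 0.05). Over all genes tested 40.8% were called, 19.2% as higher and 21.6% as lower, so the 42.9% called among the mitotic genes lies near the background. Their median log2 fold change was −0.40, against −0.20 over all genes tested. In 8 genes all knockdown libraries lay above all controls (23.5% of all genes tested), and in 13 genes all lay below (30.3%), where 53.8% of all genes tested were free of overlap in either direction. With library totals alone in place of TMM factors the all-gene median was −0.92, higher genes made up 25.1% of all calls, against 47.0% with TMM, and the mitotic counts were 5 higher and 11 lower, with no called gene changing direction.

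**Figure D1:**
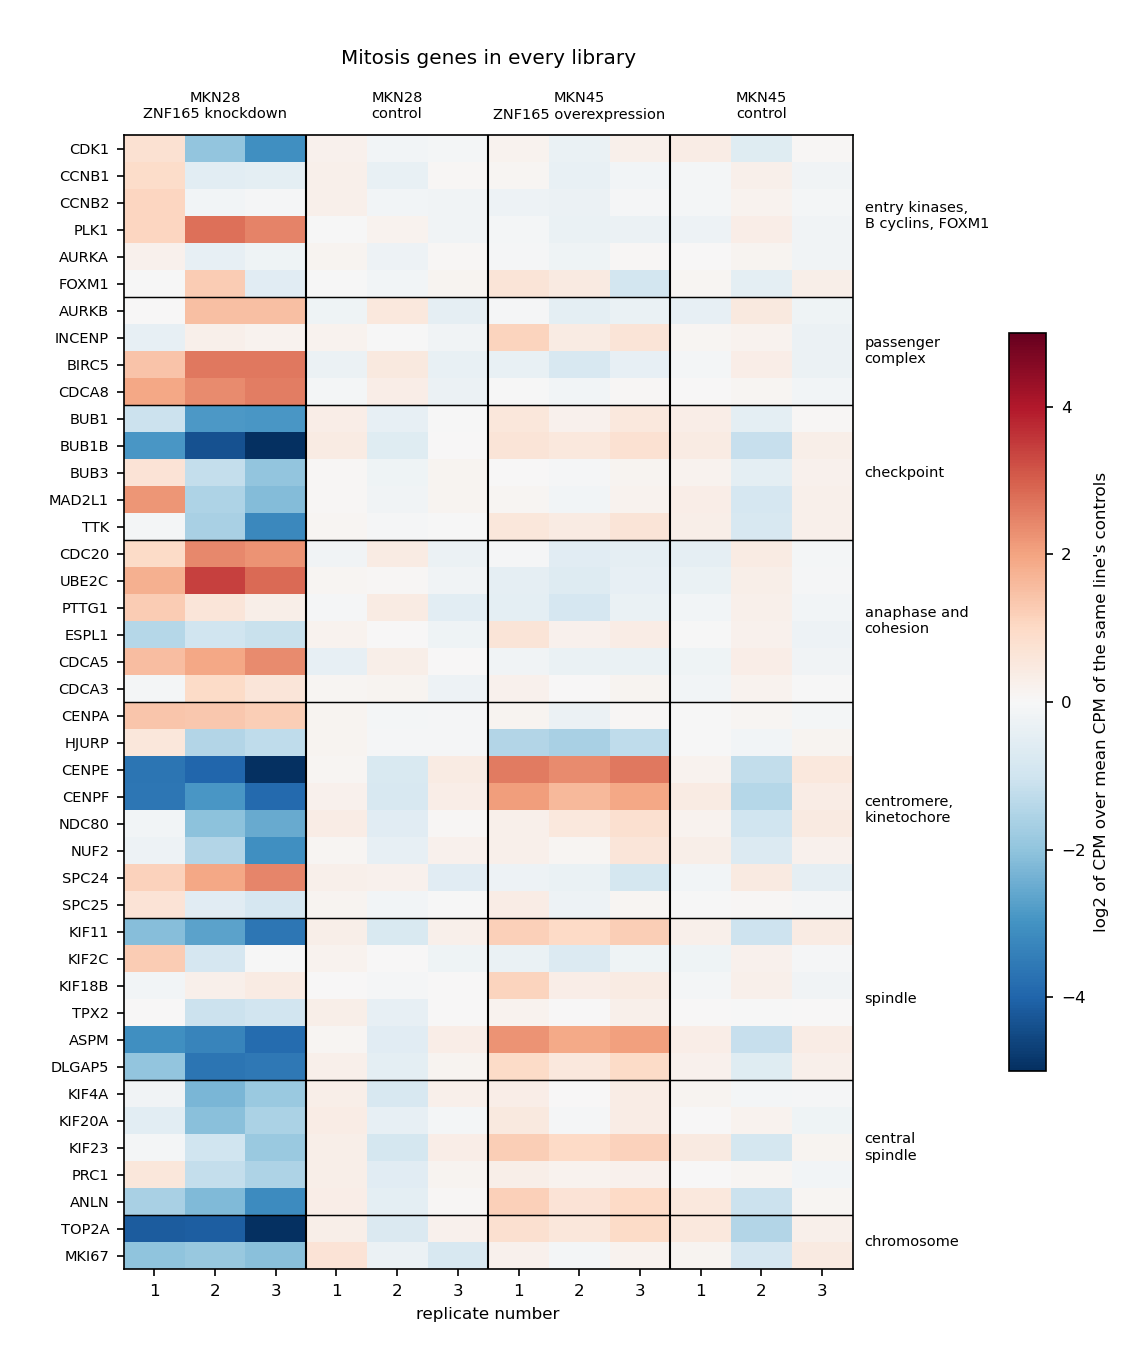
Heat map of the log2 of each library's CPM over the mean CPM of the same line's controls (0.1 CPM added to both), with the 42 genes as rows grouped by role and the 12 libraries as columns, red for higher and blue for lower. In the knockdown columns UBE2C, BIRC5, CDCA8 and PLK1 are red and TOP2A, CENPE, BUB1B and CENPF are dark blue, and replicate 1 is paler than replicates 2 and 3 in many rows.

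Of the genes that drive entry into mitosis, 1 of 6 passed. PLK1, the kinase that matures centrosomes and activates CDK1, stood at 290.4, 933 and 776 CPM in knockdown libraries (4521, 9442 and 6779 counts), against 139, 156 and 122.5 CPM in MKN28 controls (3361, 3676 and 2826 counts), in the order of replicates 1 to 3. All knockdown libraries exceeded all controls, and replicates 2 and 3 far exceeded replicate 1 (log2 fold change 2.26 ± 0.53, adjusted p = 0.00889). PLK1 exons overlap ERN2 on the opposite strand, and whether reads were counted by strand is not given in the sources used here. CDK1, the master kinase of mitosis, stood at 166.5, 25.00 and 11.67 CPM in knockdown libraries (2592, 253 and 102 counts), against 113, 88.2 and 91.3 CPM in MKN28 controls (2726, 2079 and 2108 counts). Its replicate 1 was above and its replicates 2 and 3 were below every control (log2 fold change −0.52 ± 0.81, adjusted p = 0.624). CCNB1, cyclin B1, followed the same arrangement with 248, 90.9 and 94.1 CPM in knockdown libraries (3862, 920 and 822 counts), against 156, 102 and 138 CPM in MKN28 controls (3775, 2414 and 3187 counts). For CCNB1 the log2 fold change was 0.13 ± 0.51 with an adjusted p = 0.858. FOXM1, the transcription factor of late cell cycle genes, stood at 85.5, 209 and 59.7 CPM in knockdown libraries (1331, 2113 and 522 counts), against 85.6, 80.3 and 96.1 CPM in MKN28 controls (2070, 1893 and 2217 counts). Here the replicates lay within, above and below the controls (log2 fold change 0.43 ± 0.52, adjusted p = 0.527). The remaining cyclin, CCNB2, and the spindle pole kinase AURKA had log2 fold changes of 0.41 ± 0.48 and −0.12 ± 0.42 and did not pass.

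The chromosomal passenger complex corrects faulty attachments and directs cytokinesis. Of its 4 subunits 2 were higher, and their median log2 fold change was 1.74. BIRC5, the survivin subunit, stood at 89.7, 207 and 207 CPM in knockdown libraries (1397, 2097 and 1808 counts), against 27.0, 47.2 and 25.6 CPM in MKN28 controls (653, 1112 and 591 counts). The groups did not overlap, and again replicates 2 and 3 were highest (log2 fold change 2.34 ± 0.52, adjusted p = 0.00743). CDCA8, the borealin subunit, was at 302, 415 and 477 CPM in knockdown libraries (4708, 4202 and 4168 counts), against 74.5, 99.6 and 66.0 CPM in MKN28 controls (1801, 2349 and 1522 counts), with every knockdown library far above the highest control. The CDCA8 log2 fold change was 2.32 ± 0.45 with an adjusted p = 0.00497. The kinase subunit AURKB stood at 43.9, 123 and 122 CPM in knockdown libraries (683, 1248 and 1068 counts), against 36.6, 61.5 and 31.2 CPM in MKN28 controls (886, 1451 and 719 counts). Replicates 2 and 3 were above all controls and replicate 1 was among them (log2 fold change 1.16 ± 0.53, adjusted p = 0.102). INCENP, the scaffold of the complex, overlapped its controls with 91.9, 144 and 136.5 CPM in knockdown libraries (1431, 1458 and 1193 counts), against 136, 119 and 107 CPM in MKN28 controls (3290, 2804 and 2462 counts). For INCENP the log2 fold change was 0.04 ± 0.42 with an adjusted p = 0.943.

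Among the 5 spindle checkpoint genes, 2 were lower and none was higher. BUB1B encodes BubR1, which binds CDC20 within the checkpoint complex, and stood at 12.5, 4.45 and 2.17 CPM in knockdown libraries (195, 45 and 19 counts), against 124, 62.0 and 96.2 CPM in MKN28 controls (3000, 1463 and 2221 counts). Every knockdown library was far below the lowest control (log2 fold change −3.87 ± 0.70, adjusted p = 0.00417). BUB1, the kinase that recruits checkpoint proteins to kinetochores, was at 55.2, 15.7 and 15.3 CPM in knockdown libraries (860, 159 and 134 counts), against 146, 88.4 and 115 CPM in MKN28 controls (3528, 2085 and 2655 counts), without overlap. The BUB1 log2 fold change was −2.02 ± 0.60 with an adjusted p = 0.0220. The BUB1 call ended under 5 of 14 alternative settings. Both BUB1 and BUB1B share sequence with another gene: BUB1 has an annotated pseudogene, BUB1P1, and BUB1B shares exons with the read-through gene BUB1B-PAK6. MAD2L1, the checkpoint effector MAD2, differed among knockdown libraries, at 289.9, 21.0 and 13.8 CPM in knockdown libraries (4513, 213 and 121 counts), against 63.6, 54.5 and 67.5 CPM in MKN28 controls (1539, 1285 and 1558 counts). Its replicate 1 was the highest of the line and its replicates 2 and 3 the lowest (log2 fold change 0.81 ± 0.94, adjusted p = 0.510). BUB3, the adaptor of both BUB kinases, had 169, 46.3 and 27.0 CPM in knockdown libraries, against 111.5, 90.8 and 116 CPM in MKN28 controls, and TTK, the kinase that starts checkpoint signalling, had 48.8, 16.5 and 5.38 CPM in knockdown libraries, against 54.6, 49.0 and 51.3 CPM in MKN28 controls. All TTK values of the knockdown lay below the controls, replicate 1 only just, and neither gene passed (adjusted p = 0.640 for BUB3 and 0.208 for TTK).

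Of 6 genes that act at anaphase or on cohesion, 3 were higher. UBE2C, the ubiquitin-conjugating enzyme of the anaphase promoting complex, stood at 325, 1006 and 673 CPM in knockdown libraries (5066, 10186 and 5884 counts), against 100.2, 99.1 and 84.5 CPM in MKN28 controls (2423, 2336 and 1951 counts). The groups were far apart and replicate 2 was highest (log2 fold change 2.82 ± 0.53, adjusted p = 0.00456). CDC20, the activator of that complex and the target of the checkpoint, was at 342, 933 and 835 CPM in knockdown libraries (5329, 9442 and 7299 counts), against 156, 234 and 145 CPM in MKN28 controls (3769, 5528 and 3338 counts). For CDC20 the log2 fold change was 1.98 ± 0.52 with an adjusted p = 0.0137. CDCA5, or sororin, which protects cohesin from release, was at 378, 506 and 669 CPM in knockdown libraries (5884, 5126 and 5849 counts), against 99.3, 162 and 133 CPM in MKN28 controls (2402, 3816 and 3064 counts). The CDCA5 log2 fold change was 1.98 ± 0.46 with an adjusted p = 0.00865. In all these genes every knockdown library exceeded every control, and the CDC20 call ended under 6 of 14 alternative settings. Annotated pseudogenes exist for UBE2C and CDC20. ESPL1, the separase that cuts cohesin, lay below its controls with 25.9, 35.1 and 32.0 CPM in knockdown libraries, against 78.5, 70.0 and 60.3 CPM in MKN28 controls, and just missed the threshold (log2 fold change −1.17 ± 0.43, adjusted p = 0.0515). PTTG1, the securin that restrains separase, had a log2 fold change of 0.79 ± 0.47, and CDCA3, an adaptor for destruction of mitotic inhibitors, had 0.57 ± 0.46. Neither passed.

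At the centromere and outer kinetochore 2 of 8 genes were higher and 2 were lower. CENPA, the histone variant that marks centromeres, stood at 63.3, 62.4 and 57.2 CPM in knockdown libraries (986, 632 and 500 counts), against 26.6, 22.9 and 23.5 CPM in MKN28 controls (642, 540 and 543 counts). Its CPM values did not overlap, while its raw counts in replicates 2 and 3 lay within or below those of the controls (log2 fold change 1.33 ± 0.43, adjusted p = 0.0314), and the call ended under 9 of 14 alternative settings. CENPA also shares exons with SLC35F6 on the same strand. CENPE, the kinesin that carries chromosomes to the spindle equator, was at 3.85, 3.06 and 0.458 CPM in knockdown libraries (60, 31 and 4 counts), against 53.7, 29.1 and 66.3 CPM in MKN28 controls (1299, 687 and 1531 counts). The highest knockdown library stayed far below the lowest control (log2 fold change −4.32 ± 0.77, adjusted p = 0.00407). CENPF, a large kinetochore protein, was at 10.9, 17.4 and 8.93 CPM in knockdown libraries (169, 176 and 78 counts), against 155, 76.7 and 165 CPM in MKN28 controls (3758, 1808 and 3817 counts), without overlap. For CENPF the log2 fold change was −3.42 ± 0.54 with an adjusted p = 0.00369. HJURP, the chaperone that loads CENPA, lay on both sides of its controls with 96.9, 23.7 and 27.7 CPM in knockdown libraries, against 72.1, 62.8 and 63.7 CPM in MKN28 controls. The HJURP log2 fold change was −0.42 ± 0.58 with an adjusted p = 0.585.

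The 4 subunits of the NDC80 complex, which joins kinetochores to microtubules, did not move together. SPC24 was higher at 46.7, 80.1 and 113 CPM in knockdown libraries (727, 811 and 991 counts), against 24.6, 24.0 and 13.9 CPM in MKN28 controls (595, 566 and 321 counts) (log2 fold change 1.94 ± 0.51, adjusted p = 0.0141). The SPC24 call ended under 6 of 14 alternative settings, among them library totals alone. NDC80 stood at 51.7, 13.5 and 9.96 CPM in knockdown libraries (805, 137 and 87 counts), against 73.0, 38.0 and 59.6 CPM in MKN28 controls (1764, 897 and 1376 counts). Its replicate 1 lay among the controls and its replicates 2 and 3 lay below them (log2 fold change −1.18 ± 0.65, adjusted p = 0.167). NUF2, its partner, showed the same layout with 22.03, 9.58 and 3.09 CPM in knockdown libraries, against 28.2, 20.02 and 30.9 CPM in MKN28 controls. For NUF2 the log2 fold change was −1.18 ± 0.67 with an adjusted p = 0.176. SPC25, the partner of SPC24, was at 36.2, 15.02 and 12.4 CPM in knockdown libraries, against 24.8, 20.1 and 22.1 CPM in MKN28 controls, on both sides of its controls. The SPC25 log2 fold change was −0.07 ± 0.54 with an adjusted p = 0.924.

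**Figure D2:**
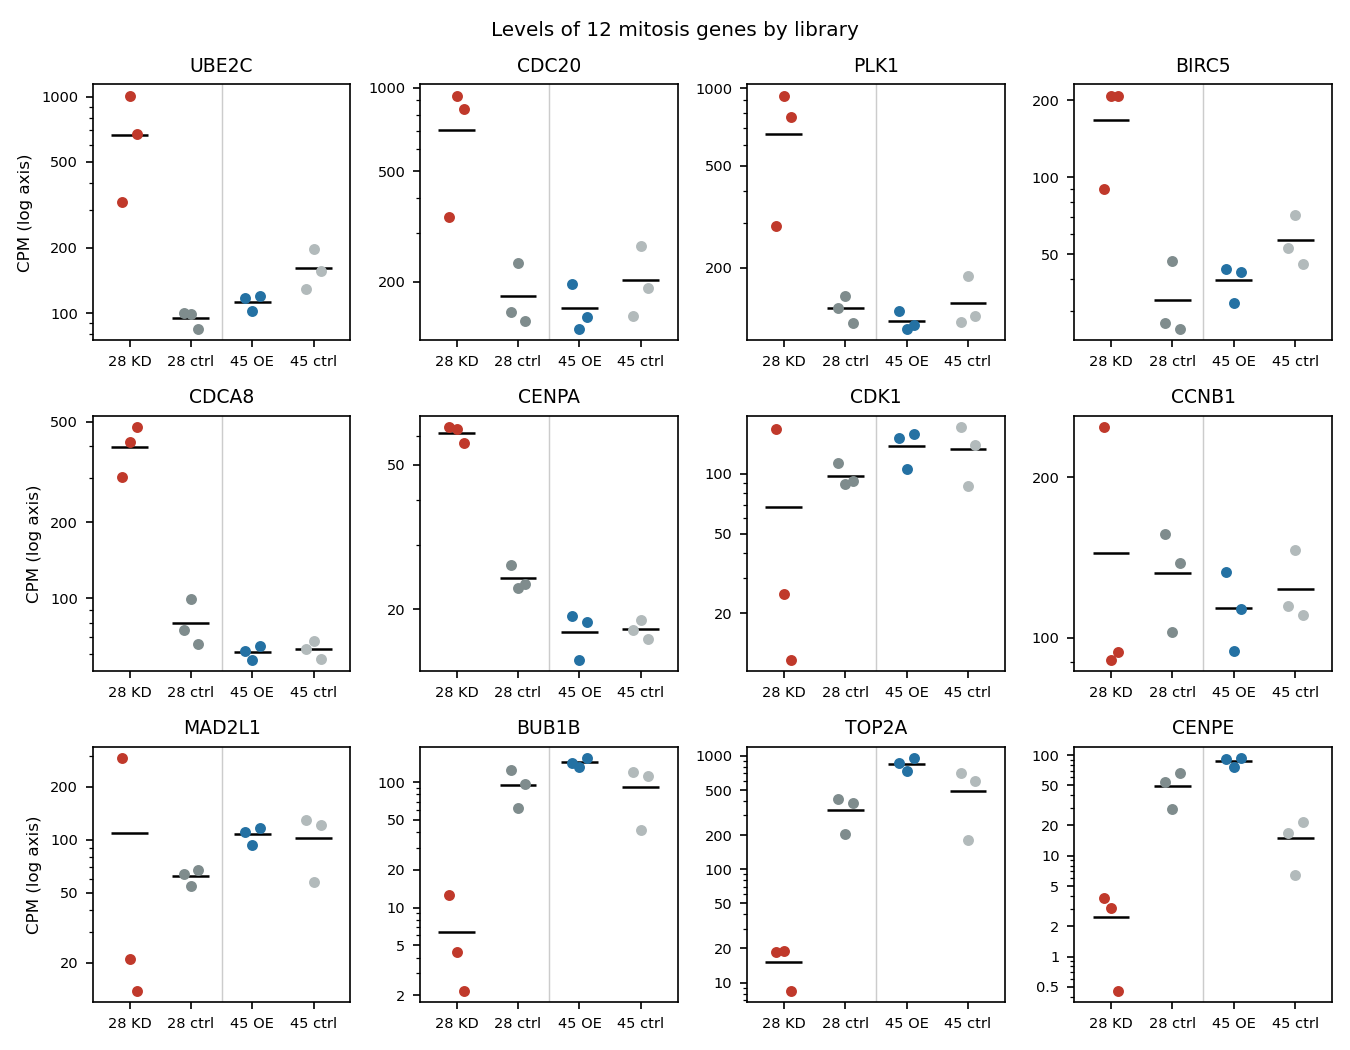
CPM on a log axis for 12 genes in each library, with points for libraries in the order of replicates 1 to 3 and a bar for the group mean (28 KD, MKN28 knockdown; 28 ctrl, MKN28 control; 45 OE, MKN45 overexpression; 45 ctrl, MKN45 control). All knockdown points of UBE2C, CDC20, PLK1, BIRC5, CDCA8 and CENPA lie above the MKN28 controls and all of BUB1B, TOP2A and CENPE below them, while those of CDK1, CCNB1 and MAD2L1 lie on both sides.

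Spindle genes were lower or did not pass. ASPM, a spindle pole protein, stood at 7.45, 6.42 and 4.35 CPM in knockdown libraries (116, 65 and 38 counts), against 68.8, 43.0 and 79.6 CPM in MKN28 controls (1664, 1013 and 1836 counts). For ASPM the log2 fold change was −3.39 ± 0.52 with an adjusted p = 0.00367. DLGAP5, or HURP, which stabilises the fibres that hold kinetochores, was at 21.2, 6.42 and 6.87 CPM in knockdown libraries (330, 65 and 60 counts), against 99.3, 58.2 and 89.8 CPM in MKN28 controls (2401, 1373 and 2071 counts). The DLGAP5 log2 fold change was −2.84 ± 0.60 with an adjusted p = 0.00638. KIF11, the motor that pushes spindle poles apart, averaged 15.1 ± 7.20 CPM in knockdown libraries and 96.9 ± 35.1 CPM in MKN28 controls (SD, n = 3 each), with a log2 fold change of −2.68 ± 0.56. No knockdown library of these genes reached the lowest control. The depolymerising motors KIF2C and KIF18B had log2 fold changes of 0.41 ± 0.55 and 0.18 ± 0.42, and TPX2, the activator of AURKA on spindles, had −0.59 ± 0.47. None of these passed.

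Among 5 genes of the central spindle and cytokinesis, ANLN was lower. ANLN, the anillin scaffold of the contractile ring, averaged 51.9 ± 25.5 CPM in knockdown libraries and 238 ± 66.2 CPM in MKN28 controls (log2 fold change −2.20 ± 0.52, adjusted p = 0.00933). The motors KIF4A, KIF20A and KIF23 had log2 fold changes of −1.14, −1.25 and −0.82, and the microtubule bundler PRC1 had −0.40, with adjusted p-values between 0.0803 for KIF20A and 0.614 for PRC1. Both genes of chromosome structure were lower. TOP2A, the topoisomerase that untangles sister chromatids, had the lowest log2 fold change of the set and stood at 18.6, 18.9 and 8.47 CPM in knockdown libraries (289, 191 and 74 counts), against 414, 203 and 384 CPM in MKN28 controls (10017, 4784 and 8853 counts). All control libraries far exceeded the highest knockdown library (log2 fold change −4.44 ± 0.57, adjusted p = 0.00367). MKI67, the Ki-67 protein that coats mitotic chromosomes, was at 54.2, 58.1 and 51.2 CPM in knockdown libraries (844, 588 and 447 counts), against 351, 179.9 and 126 CPM in MKN28 controls (8477, 4243 and 2914 counts). The knockdown libraries were close together and below controls that themselves spread widely (log2 fold change −2.01 ± 0.50, adjusted p = 0.0110).

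**Figure D3:**
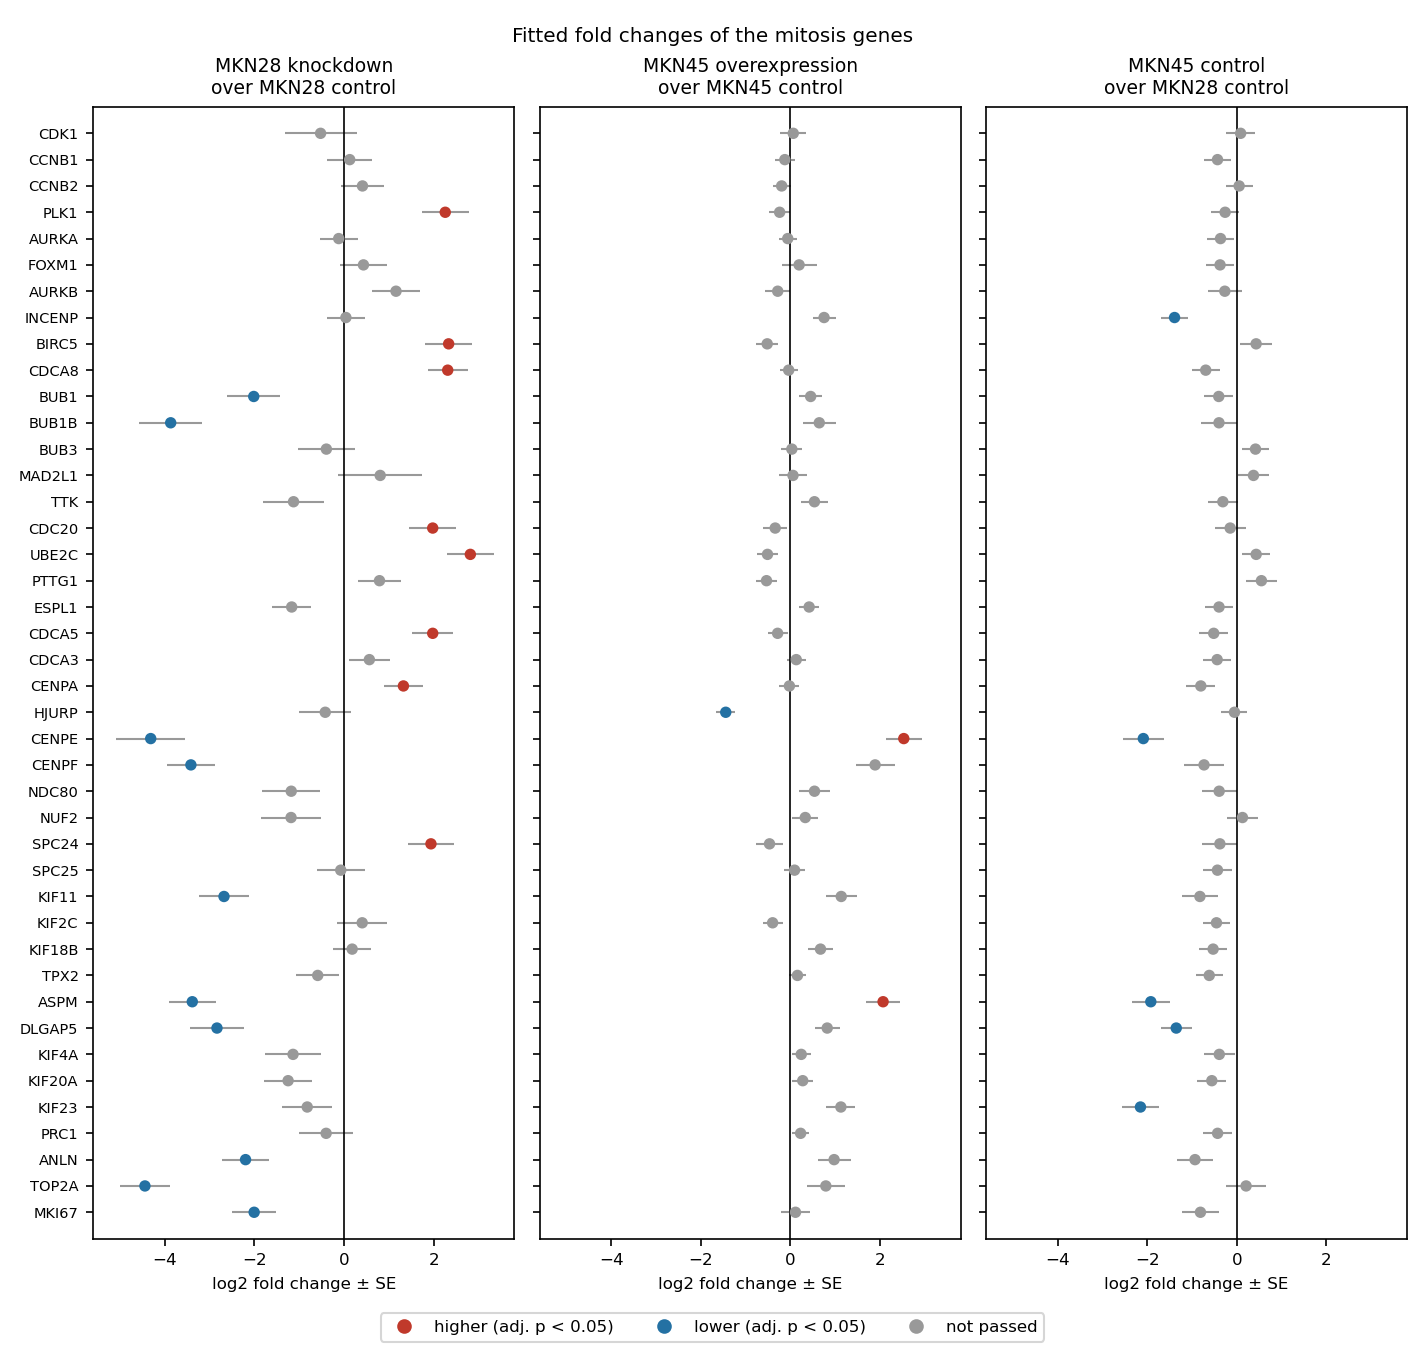
Fitted log2 fold changes with their standard errors for the 42 genes in the knockdown, the overexpression and the comparison of control lines, with genes past an adjusted p of 0.05 in red (higher) or blue (lower). In the knockdown 8 genes are red and 10 blue, in the overexpression CENPE and ASPM are red and HJURP is blue, and between control lines 5 genes are blue.

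Knockdown replicate 1 differed from replicates 2 and 3, whose descriptions mention ZNF166 or ZNF167. The libraries differed as a whole: the Spearman correlation of CPM with GC content was 0.0656 in replicate 1, against 0.405 and 0.396. Its TMM factor was 1.032, against 0.568 and 0.724, and 20560 genes had counts, against 17620 and 17504. How far the mitotic genes follow these differences was not tested. In 7 genes (CDK1, CCNB1, BUB3, MAD2L1, HJURP, SPC25 and PRC1) replicate 1 lay above all MKN28 controls and replicates 2 and 3 lay below all of them. Replicate 1 had 19 genes above and 15 below all controls, replicate 2 had 14 above and 27 below, and replicate 3 had 12 above and 26 below. The shares of all genes placed in these ways were not taken. These counts therefore describe single libraries and are no result about mitotic genes. The median of checkpoint genes over the mean of controls was −0.08, −1.64 and −2.92 (log2) in knockdown replicates 1 to 3, and that of central spindle genes was −0.18, −2.11 and −1.85. The median of the 6 genes of anaphase and cohesion was 1.11, 1.46 and 1.42, with ESPL1 below the mean of controls in every replicate. Without replicate 1, 10 genes were higher and 23 lower, among them all 18 of the calls above. Over all 15758 genes tested in that setting 4461 were higher and 5917 lower. MAD2L1 was lower there (log2 fold change −1.70), while its replicate 1 lay at 2.23 (log2) over the mean of controls. Without MKN28 control replicate 1, 2 genes were higher and 8 lower, beside 1019 and 1623 of all 15276 genes tested. Without control replicate 3, 4 were higher and 9 lower, beside 1292 and 1879 of 15427.

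Higher and lower genes differed in transcript length and base composition. The 8 higher genes have transcripts of 914 to 2711 nucleotides with 47.8% to 57.9% GC, and the 10 lower genes have transcripts of 2973 to 12678 nucleotides with 35.3% to 48.3% GC (longest coding transcript in GENCODE 29). Across the 42 genes the Spearman correlation of the log2 fold change was −0.629 with length and 0.677 with GC content, and across all 14864 genes with both values it was −0.538 and 0.524. Genes are not independent replicates and share the libraries, so these values are descriptions. Among the shortest genes, with transcripts of 75 to 1835 nucleotides, the median log2 fold change was 1.202, and it was 1.244 for the 6 mitotic genes there. Among the longest, with transcripts of 4773 nucleotides or more, it was −1.65 for all genes and −2.44 for the 10 mitotic genes there. Of these 10 genes 7 were lower, beside 48.8% of all genes of that length.
With the trend of length and GC content removed in the fit, 9 mitotic genes were higher and 8 were lower, and 11 of the 18 calls were shared. Over all 14939 genes tested 2308 were then higher and 3445 lower. PLK1, BIRC5, CDCA8, UBE2C, CDCA5 and SPC24 were still higher, and BUB1, BUB1B, CENPE, DLGAP5 and TOP2A still lower. Fold changes of these genes were smaller: the log2 value of TOP2A became −2.25, adjusted p = 0.00291, that of BUB1B −2.91, adjusted p = 0.00170, and that of CDCA8 1.68, adjusted p = 0.00200. CDC20 (0.28, adjusted p = 0.320), CENPA (0.65, adjusted p = 0.0828), CENPF (−0.76, adjusted p = 0.185), KIF11 (−0.75, adjusted p = 0.0826), ASPM (−0.67, adjusted p = 0.119), ANLN (−0.41, adjusted p = 0.292) and MKI67 (−0.46, adjusted p = 0.341) no longer passed. BUB3 (1.48, adjusted p = 0.00937), MAD2L1 (2.10, adjusted p = 0.0310) and CCNB2 (0.75, adjusted p = 0.0378) then passed as higher, and AURKB (−0.72, adjusted p = 0.0491), ESPL1 (−1.02, adjusted p = 0.0269) and KIF20A (−1.17, adjusted p = 0.0230) as lower. These values use the longest transcript, which for BUB3 (7828 nucleotides) and MAD2L1 (5468 nucleotides) need not be the form the cells make. Which part of the change in each gene the trend carries was not tested.

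**Figure D4:**
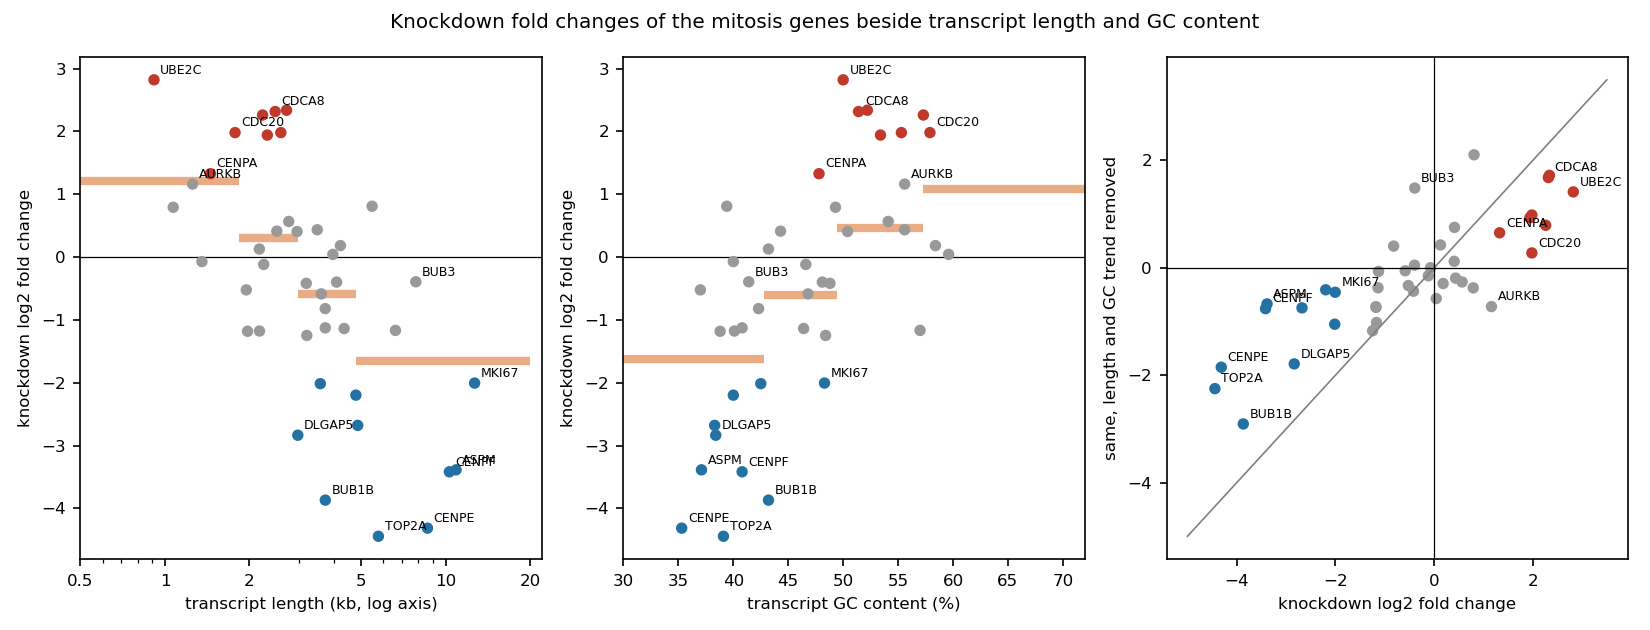
Knockdown log2 fold changes of the 42 genes against transcript length (left, kilobases on a log axis) and GC content (middle), with red for higher, blue for lower and grey for genes that did not pass; orange bars give the median of all genes in each of 4 bins of length or GC content. The right panel sets the same values (x) against those with the trend removed (y), with the line of equality: TOP2A, BUB1B and CENPE stay lowest on both axes, and BUB3 changes sign.

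The knockdown calls of 6 genes held with the same direction under all 14 alternative settings. They were CDCA8 and UBE2C, which were higher, and BUB1B, CENPE, DLGAP5 and TOP2A, which were lower. In GENCODE 29 on GRCh38 these genes lie at chr1:37692418-37709719 (CDCA8, plus strand), chr20:45812576-45816957 (UBE2C, plus), chr15:40161023-40221136 (BUB1B, plus), chr4:103105806-103198409 (CENPE, minus), chr14:55148112-55191678 (DLGAP5, minus) and chr17:40388516-40417950 (TOP2A, minus).

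Other mitotic genes changed in both directions too, with more of them lower. Of 129 other genes of the pathway 19 were higher and 46 lower in the knockdown, beside 19.2% of all genes tested called higher and 21.6% lower, with a median log2 fold change of −0.92 against −0.20 over all genes tested. With the trend of length and GC content removed, 21 were higher and 34 lower, with a median of −0.42. Over all 14939 genes 2308 were then higher and 3445 lower, with a median of −0.29. Cohesin and its regulators were lower in 9 of 14 genes and higher in none, among them the cohesin loader NIPBL with 4.09 ± 1.66 CPM in knockdown libraries and 69.3 ± 34.9 CPM in MKN28 controls (SD, n = 3 each) and PDS5A (log2 fold change −3.52). Transcripts of 8 of the 14 cohesin genes fall among the longest genes, of which 48.8% were lower over all genes tested, and with the trend removed 1 cohesin gene was higher and 5 were lower. Of 8 condensin genes 6 were lower (4 with the trend removed), led by the core subunits SMC4 (−3.47) and SMC2 (−3.20), and NCAPH2, a subunit of condensin II, was higher (2.72). Other spindle, centrosome and cytokinesis genes were lower in 16 of 24, led by the centriole protein SASS6 (−5.48) and the kinesin KIF14 (−4.46). They were higher in 2, KIF22 (1.84) and the gamma-tubulin TUBG1 (1.46). With the trend removed 13 of the 24 were lower and 0 higher.
The anaphase promoting complex and its partners had 4 higher and 4 lower of 17. UBE2S, the enzyme that extends the ubiquitin chains UBE2C starts, had 1312 ± 839 CPM in knockdown libraries and 120.2 ± 48.9 CPM in MKN28 controls (log2 fold change 3.45 ± 0.66, adjusted p = 0.00481), and the RING subunit ANAPC11 was higher too (3.34), whereas CDC27 (−3.05) and ANAPC4 (−2.61) were lower. Of 16 regulators of mitotic entry 3 were higher, led by the phosphatase inhibitor ENSA (2.15) and the CDK1 inhibitory kinase PKMYT1 (1.94), and 4 were lower, led by the centriole kinase PLK4 (−2.20) and NEK2 (−2.06). The constitutive centromere network had 4 higher and 2 lower of 18, with CENPX (2.65) and CENPM (2.53) leading the higher genes and CENPI (−2.45) among the lower. Other outer kinetochore genes had 2 higher and 3 lower of 16, from the kinetochore protein PMF1 (3.10) and MAD2L1BP (1.65) to KNTC1 (−5.20) and SPDL1 (−3.51). Among 16 transcriptional regulators of these genes, 3 were higher and 2 lower. MYBL2, which encodes B-MYB, had 1878 ± 1094 CPM in knockdown libraries and 261 ± 12.8 CPM in MKN28 controls (log2 fold change 2.85 ± 0.58, adjusted p = 0.00541), E2F1 was also higher (2.10), and the pocket protein genes RB1 (−3.82) and RBL2 (−3.58) were lower.

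Few mitotic genes passed the threshold when ZNF165 was overexpressed in MKN45 cells. CENPE and ASPM were higher and HJURP was lower, while 39 genes did not pass. That is 2 genes higher and 1 lower of 42, beside 0.935% of all 15833 genes called higher, 0.196% called lower and 1.13% in either direction, and the median log2 fold change was 0.14 against −0.002 over all genes tested. CENPE stood at 90.4, 76.8 and 93.2 CPM in overexpression libraries (1779, 1568 and 1654 counts), against 16.9, 6.42 and 21.6 CPM in MKN45 controls (303, 87 and 339 counts), with every overexpression library far above the highest control. For CENPE the log2 fold change was 2.53 ± 0.40 with an adjusted p = 0.0335. ASPM stood at 102, 79.7 and 90.2 CPM in overexpression libraries (2014, 1629 and 1600 counts), against 27.5, 9.66 and 27.6 CPM in MKN45 controls (492, 131 and 433 counts), without overlap. The ASPM log2 fold change was 2.07 ± 0.38 with an adjusted p = 0.0446. HJURP stood at 29.1, 26.6 and 33.9 CPM in overexpression libraries (573, 543 and 601 counts), against 79.1, 74.2 and 90.2 CPM in MKN45 controls (1414, 1006 and 1416 counts), with every overexpression library below every control. For HJURP the log2 fold change was −1.44 ± 0.22 with an adjusted p = 0.0282. HJURP exons overlap MROH2A on the opposite strand. All 3 calls ended when replicate numbers were used as a block, in the fit of all 12 libraries, without MKN45 control replicate 3 and without any overexpression replicate, and the log2 fold changes stayed between 1.77 and 2.88 for CENPE, 1.31 and 2.28 for ASPM and −1.55 and −1.35 for HJURP. Without control replicate 2, the library that stood apart in its length relation, CENPF, KIF11 and KIF23 were higher as well. Over all 16196 genes tested in that setting 832 were higher and 506 lower, against 148 and 31 of 15833 in the main fit.

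Other genes called in the knockdown did not pass here. CENPF had 432, 318 and 389.8 CPM in overexpression libraries (8507, 6500 and 6917 counts), against 137, 37.6 and 133 CPM in MKN45 controls (2451, 510 and 2082 counts), without overlap, and missed the threshold. The CENPF log2 fold change was 1.89 ± 0.43 with an adjusted p = 0.0593. TOP2A stood at 870.5, 741 and 956 CPM in overexpression libraries (17136, 15132 and 16969 counts), against 706, 181 and 598 CPM in MKN45 controls (12620, 2450 and 9384 counts). Its overexpression libraries lay above all controls, of which replicate 2 was far below the others (log2 fold change 0.79 ± 0.42, adjusted p = 0.256). BUB1B, at 142, 133 and 155 CPM in overexpression libraries (2798, 2715 and 2756 counts), against 121, 41.2 and 113 CPM in MKN45 controls (2167, 559 and 1769 counts), was placed in the same way. For BUB1B the log2 fold change was 0.65 ± 0.36 with an adjusted p = 0.279. UBE2C, at 117, 102 and 119.6 CPM in overexpression libraries (2310, 2084 and 2123 counts), against 129, 198 and 156 CPM in MKN45 controls (2313, 2681 and 2452 counts), lay below its controls. The UBE2C log2 fold change was −0.51 ± 0.22 with an adjusted p = 0.183. BIRC5, at 43.9, 32.2 and 42.7 CPM in overexpression libraries (864, 657 and 757 counts), against 53.0, 71.3 and 45.7 CPM in MKN45 controls (948, 967 and 718 counts), lay below them too. For BIRC5 the log2 fold change was −0.52 ± 0.25 with an adjusted p = 0.216. In each of these genes control replicate 2 was the control farthest from the overexpression libraries. DLGAP5 had 79.8, 59.4 and 79.6 CPM in overexpression libraries (1570, 1213 and 1413 counts), against 47.4, 27.3 and 49.0 CPM in MKN45 controls (847, 370 and 769 counts), without overlap. The DLGAP5 log2 fold change was 0.82 ± 0.28 with an adjusted p = 0.116.

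Most other genes followed library by library overlapped their MKN45 controls. PLK1 stood at 136, 116 and 120 CPM in overexpression libraries (2680, 2365 and 2129 counts), against 123, 186 and 129.8 CPM in MKN45 controls (2205, 2524 and 2038 counts). For PLK1 the log2 fold change was −0.24 ± 0.23 with an adjusted p = 0.514. CDC20 stood at 196, 135.5 and 149.8 CPM in overexpression libraries (3864, 2768 and 2658 counts), against 151, 268 and 190.2 CPM in MKN45 controls (2693, 3638 and 2986 counts). The CDC20 log2 fold change was −0.34 ± 0.27 with an adjusted p = 0.430. CDK1 stood at 151, 105 and 158 CPM in overexpression libraries (2972, 2146 and 2811 counts), against 171, 86.4 and 139 CPM in MKN45 controls (3056, 1171 and 2185 counts). For CDK1 the log2 fold change was 0.06 ± 0.29 with an adjusted p = 0.904. Each of these sets of libraries overlapped. The cyclin gene CCNB1 was at 132.5, 94.5 and 113 CPM in overexpression libraries (2609, 1931 and 2011 counts), against 114.5, 146 and 110.1 CPM in MKN45 controls (2047, 1984 and 1729 counts). The passenger kinase AURKB was at 43.3, 32.0 and 36.0 CPM in overexpression libraries (852, 654 and 639 counts), against 33.9, 62.5 and 39.0 CPM in MKN45 controls (606, 848 and 613 counts). CENPA was at 19.1, 14.5 and 18.4 CPM in overexpression libraries (377, 297 and 327 counts), against 17.6, 18.7 and 16.6 CPM in MKN45 controls (314, 254 and 261 counts). All these groups overlapped, with log2 fold changes between −0.28 and −0.02. FOXM1 was at 134, 117 and 45.1 CPM in overexpression libraries (2633, 2382 and 801 counts), against 91.9, 61.4 and 105 CPM in MKN45 controls (1643, 833 and 1645 counts), where overexpression replicate 3 lay below every other library of the line. The checkpoint kinase gene BUB1 was at 168, 132 and 161 CPM in overexpression libraries (3315, 2693 and 2855 counts), against 140.3, 80.02 and 117 CPM in MKN45 controls (2509, 1085 and 1833 counts). NDC80 was at 65.3, 79.5 and 96.9 CPM in overexpression libraries (1286, 1624 and 1720 counts), against 62.6, 28.03 and 75.9 CPM in MKN45 controls (1119, 380 and 1191 counts). Both overlapped their controls, of which replicate 2 was lowest (log2 fold changes 0.45 ± 0.25 for BUB1 and 0.54 ± 0.35 for NDC80). MKI67 was at 187.5, 150 and 183 CPM in overexpression libraries (3690, 3064 and 3242 counts), against 175.5, 88.8 and 216 CPM in MKN45 controls (3139, 1204 and 3396 counts). CDCA8 was at 61.8, 57.0 and 64.6 CPM in overexpression libraries (1216, 1164 and 1146 counts), against 63.0, 67.8 and 57.5 CPM in MKN45 controls (1126, 920 and 902 counts). CDCA5 was at 101, 92.4 and 91.5 CPM in overexpression libraries (1995, 1888 and 1623 counts), against 100.5, 145 and 102 CPM in MKN45 controls (1797, 1968 and 1601 counts). These again overlapped, with log2 fold changes of 0.11 for MKI67, −0.04 for CDCA8 and −0.29 for CDCA5. INCENP, the scaffold of the passenger complex, was at 127, 77.2 and 89.8 CPM in overexpression libraries (2497, 1577 and 1593 counts), against 61.6, 65.5 and 47.4 CPM in MKN45 controls (1102, 888 and 744 counts). INCENP lay above its controls without overlap but missed the threshold (log2 fold change 0.75 ± 0.26, adjusted p = 0.119).
Without overlap between groups, 15 of the 42 genes lay above their controls (19.4% of all genes tested) and 5 lay below them (18.7%), where 38.1% of all genes were free of overlap. Of 129 other mitotic genes 1 passed, the cytokinesis kinesin KIF20B (log2 fold change 2.04 ± 0.38, adjusted p = 0.0446), and the list had a median log2 fold change of 0.37. All 14 cohesin genes had positive log2 fold changes, with a median of 0.99, and none passed. With the trend of length and GC content removed, 18 of the 129 genes were higher and 3 lower, among them 4 cohesin genes that were higher. Over all 15833 genes tested 717 were then higher and 353 lower. The fold changes correlated with transcript length at a Spearman value of 0.657 across the 42 genes and 0.405 across all genes, with the sign opposite to that in the knockdown.

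Set side by side, the knockdown and the overexpression, which share no library, had opposite signs in most mitotic genes. Of the 8 genes higher in the knockdown all 8 had a negative log2 fold change in the overexpression, and of the 10 lower genes all 10 had a positive one. Over all genes higher or lower in the knockdown the same held for 85.5% and 86.5%, so the mitotic genes lie near the background. Over all 42 genes 35 had opposite signs (83.3%), against 72.7% of all genes tested in both arms. With the trend of length and GC content removed, 31 of 42 had opposite signs (73.8%). The share over all genes was not taken in that setting, so this count is no result about mitotic genes. CENPE and ASPM alone passed in both arms, with log2 fold changes of −4.32 and −3.39 in the knockdown and 2.53 and 2.07 in the overexpression.
The size of the response differed between lines for 10 genes in a fit of all 12 libraries. The contrast is the sum of both log2 fold changes, so it is 0 where the arms mirror each other. It was positive for PLK1 (2.07), BIRC5 (1.85), CDCA8 (2.31), UBE2C (2.36), CDCA5 (1.74) and CENPA (1.35), and negative for BUB1B (−3.19), DLGAP5 (−1.97), TOP2A (−3.61) and MKI67 (−1.86), with adjusted p-values between 0.00628 for TOP2A and 0.0448 for DLGAP5 (8.09% of all genes tested were called with a positive and 9.38% with a negative contrast, 17.5% in all). The 4 calls of CDCA8, UBE2C, BUB1B and TOP2A held under all 18 alternatives. The contrast did not pass for CENPE and ASPM (contrasts −1.73 ± 0.80 and −1.27 ± 0.58, adjusted p = 0.137 and 0.137).

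The control cells of both lines were compared to set a baseline. None of the 42 genes was higher in MKN45 controls than in MKN28 controls and 5 were lower, beside 21.4% of all 16088 genes tested called higher, 20.4% lower and 41.8% in either direction, and the median log2 fold change was −0.40 against −0.04 over all genes. In 11 genes all MKN45 controls lay below all MKN28 controls and in none above (25.4% and 26.9% of all genes tested, 52.3% in all). DESeq2 also gave 0 higher genes, and 0 of the 42 were higher at an unadjusted p under 0.05. The counts depended on the setting: 2 were higher and 17 lower with the trend of length and GC content removed, 3 and 18 with the replicate block as well, and 1 was higher without MKN28 control replicate 2. With the trend removed 4246 of all 16088 genes tested were higher and 4422 lower, and with the replicate block as well 4397 and 4561. Without MKN28 control replicate 2, 4106 of all 16832 genes tested were higher. KIF23, the motor of the central spindle, averaged 39.1 ± 15.5 CPM in MKN45 controls and 173.5 ± 67.7 CPM in MKN28 controls (CPM scaled over the 6 control libraries, SD, n = 3 each; log2 fold change −2.15 ± 0.42, adjusted p = 0.00142). CENPE averaged 14.8 ± 7.31 and 63.2 ± 23.2 CPM in MKN45 and MKN28 controls (log2 fold change −2.09 ± 0.46, adjusted p = 0.00303). ASPM averaged 21.4 ± 9.69 and 81.1 ± 22.8 CPM in the same order (log2 fold change −1.92 ± 0.42, adjusted p = 0.00306). None of these sets of libraries overlapped.
INCENP averaged 58.8 ± 11.68 CPM in MKN45 controls and 154 ± 19.6 CPM in MKN28 controls (log2 fold change −1.39 ± 0.31, adjusted p = 0.00336), and DLGAP5 averaged 41.1 ± 10.6 and 105 ± 26.4 CPM (log2 fold change −1.35 ± 0.35, adjusted p = 0.00777). Replicate numbers are no shown pairing of the control libraries. With the number as a block 1 gene was higher (PTTG1) and 12 were lower. The lower genes were the 5 above with CDCA8, CDCA5, CENPA, CENPF, KIF11, TPX2 and ANLN. Over all 16088 genes tested 4357 were then higher and 4582 lower, so the 12 lower genes are no result about mitotic genes. The call of DLGAP5 ended without MKN28 control replicate 1 (adjusted p = 0.0528). The entry kinases did not pass, with CDK1 at 132 ± 38.6 CPM in MKN45 controls and 124 ± 16.8 CPM in MKN28 controls and PLK1 at 148 ± 42.2 and 178 ± 24.1 CPM. TOP2A averaged 489.8 ± 265 CPM in MKN45 controls, with replicate 2 far below the rest, and 424 ± 141 CPM in MKN28 controls (adjusted p = 0.739).

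**Figure D5:**
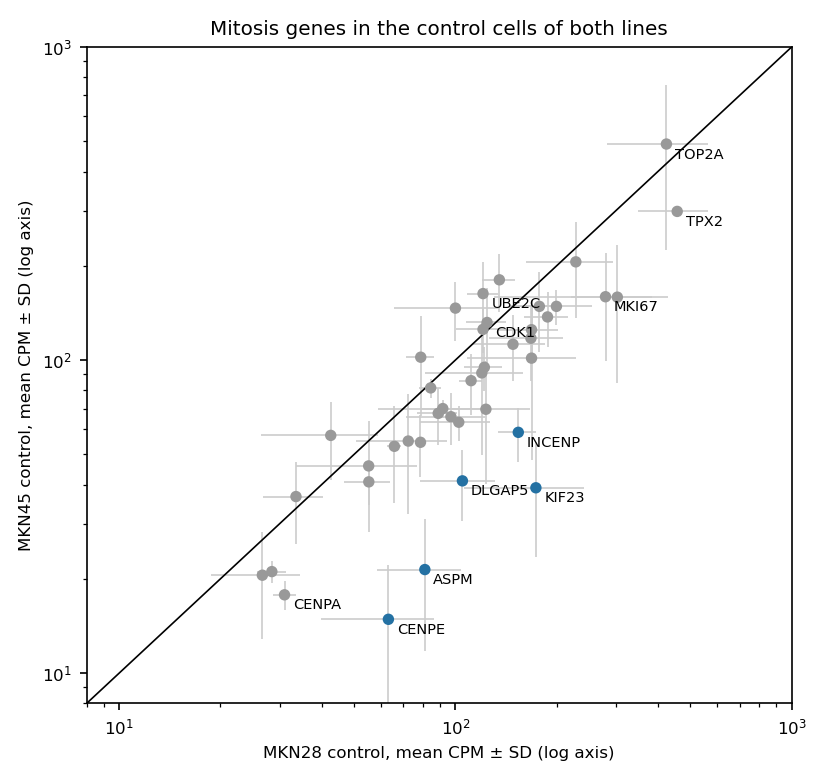
Mean CPM of the 42 genes in MKN45 controls (y) against MKN28 controls (x), on log axes with the SD over 3 libraries and the line of equality; blue marks genes lower in MKN45 at an adjusted p under 0.05. KIF23, CENPE, ASPM, INCENP and DLGAP5 lie below the line, and most other genes lie on or just under it.

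Of 129 other mitotic genes 6 were higher and 32 lower in MKN45 controls than in MKN28 controls, beside 21.4% of all genes tested called higher and 20.4% lower. With the trend of length and GC content removed 12 were higher and 56 lower, beside 4246 higher and 4422 lower of all 16088 genes tested. MELK, a kinase of proliferating cells, had 36.2 ± 10.6 CPM in MKN45 controls and 235.5 ± 69.8 CPM in MKN28 controls (log2 fold change −2.70 ± 0.37, adjusted p = 9.52e-05), and the repressor E2F8 had 5.74 ± 2.53 CPM in MKN45 controls and 41.2 ± 12.5 CPM in MKN28 controls (log2 fold change −2.84 ± 0.44, adjusted p = 2.40e-04). The condensin gene NCAPG (−1.66), the kinetochore scaffold KNL1 (−1.84), the cohesin protector SGO2 (−1.67) and KIF14 (−2.09) were also lower. The higher genes included the anaphase promoting complex subunit ANAPC16 (1.55), the centromere gene CENPM (1.35) and TRIP13 (0.99), the ATPase that dismantles the checkpoint complex.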

How the data were processed

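Values are read counts as deposited: whole numbers per Ensembl identifier and library, per the file headers. HISAT2 and StringTie were used per the submitters' processing notes; how reads were counted, on which build and annotation, and whether by strand, is not given in sources used here. With strand unknown, reads of overlapping genes (15 of the 42) and pseudogene copies (9) cannot be told apart. The 42 genes, their roles, the 129 other genes and the rule for naming genes (12 fixed genes per library, up to 6 higher and 6 lower per comparison by fitted change, and up to 2 of each per other list) were chosen with earlier results of these data known; some genes under the rule are not reported here. Counts were tested with edgeR 4.0.16 (R 4.3.3; quasi-likelihood, TMM, filterByExpr with minimum count 10 and total 15, Benjamini-Hochberg over all genes) within each line, between controls and over all 12 libraries. SE is the log2 fold change over the root of F. The scripts were tested on simulated data. Alternatives used DESeq2 1.42.0, library totals, no filter, a spline (4 degrees of freedom) on length and GC content of the longest coding GENCODE 29 transcript, a replicate block and left-out replicates. Correlations of deviations between libraries of the same number were 0.343, 0.582 and 0.338 in the control lines. They were 0.324, 0.499 and −0.427 in the knockdown and −0.093, −0.063 and 0.111 in the overexpression. Replicate numbers are no shown pairing in any comparison: MKN45 control replicate 1 and MKN28 control replicate 3 gave 0.349. A count of 0 allows 0.154 CPM in the deepest and 0.248 in the shallowest library (3 counts), counting error only. Replicates differed far beyond it (chi-square per degree of freedom 19.4 to 417).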

Additional observations from a re-analysis of the deposited data

Results flagged for a closer look

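For 10 mitotic genes the response to ZNF165 level was not the same in MKN45 and MKN28, in a test of the difference itself (edgeR quasi-likelihood test over all 12 libraries). That is 23.8% of the 42 genes, beside 17.5% of all 17266 genes tested. The contrast is the log2 change of overexpression over its MKN45 control minus that of the MKN28 control over its knockdown, so a positive value comes from genes that were higher in the knockdown and did not fall as much in the overexpression. It was 2.07 for PLK1, 1.85 for BIRC5, 2.31 for CDCA8, 2.36 for UBE2C, 1.74 for CDCA5 and 1.35 for CENPA. It was −3.19 for BUB1B, −1.97 for DLGAP5, −3.61 for TOP2A and −1.86 for MKI67, which were lower in the knockdown and did not rise as much in the overexpression. The call of CENPA ended under 15 of 18 alternatives, those of BIRC5 and MKI67 under 11, and those of PLK1, CDCA5 and DLGAP5 under 10. The lines, the vectors and the size of the change in ZNF165 differ together between the arms and cannot be told apart.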

How the results depend on the processing

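Of 2436 values of single mitotic genes under alternatives, 2175 stayed on the same side of the threshold with no passing value changing direction, and in 166 of these the sign changed while neither setting passed. A further 131 lost and 125 gained a pass, and 5 reversed. The reversed values were AURKB (−0.72) and BUB3 (1.48) in the knockdown with the length and GC trend removed, BUB3 (1.41) with the replicate block and the trend removed, and MAD2L1 without knockdown replicate 1 (−1.70 in the knockdown, where the left-out values reach 1.35, and −1.72 in the difference between lines, where they reach 1.39); the causes were not tested. Knockdown counts were 5 higher with library totals alone and 5 with knockdown replicate 1 as its only library, 2 to 10 higher and 8 to 23 lower with a replicate left out, and 8 higher and 15 lower with the replicate block, where the numbers are no shown pairing. Overexpression counts were 5 higher with DESeq2, 1 with library totals, 6 with the trend removed, and 0 higher and 0 lower with the replicate block and in the fit of all 12 libraries; leaving out a replicate gave 0 to 5 higher and 0 to 1 lower. In the control lines the trend removed gave 2 higher and 17 lower, the replicate block 1 and 12, and both together 3 and 18. Left-out replicates gave 0 to 1 higher and 4 to 6 lower. Over all genes tested the same settings gave 4246 and 4422, 4357 and 4582, and 4397 and 4561. Left-out replicates there gave 2741 to 4106 higher and 2344 to 3393 lower. The difference between lines had 2 higher genes with library totals, 3 with no filter, 2 to 12 higher and 2 to 19 lower with a replicate left out. Over all genes tested 616 were higher there with library totals and 1417 with no filter, against 1397 in the main fit. With a replicate left out 472 to 3215 were higher and 680 to 4995 lower. Where a replicate was left out its arm kept 2 libraries, and the sole knockdown replicate is assumed to vary like the controls. Over all genes tested, library totals moved the share of higher calls in the knockdown to 25.1%, against 47.0%, with DESeq2 at 50.4%; in the overexpression the share was 82.7%, and 56.6% with DESeq2. Low counts limit CENPE (4 counts) and BUB1B (19 counts) in knockdown replicate 3.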

Other observations

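Per kilobase of the longest coding transcript, UBE2C was the most abundant of the 42 genes in knockdown libraries (731 ± 372.5 CPM per kilobase, SD, n = 3), in MKN28 controls (103.5 ± 9.55) and in MKN45 controls (176 ± 37.7), while TOP2A was the most abundant in overexpression libraries (149 ± 18.9), followed by UBE2C (124 ± 10.5). CENPE was the least abundant in knockdown libraries (0.285 ± 0.206), in MKN28 controls (5.78 ± 2.20) and in MKN45 controls (1.74 ± 0.903). In overexpression libraries the lowest was SPC24 (6.32 ± 1.37), followed by ASPM (8.34 ± 1.04) and HJURP (9.37 ± 1.16).

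The 42 genes took up 0.546%, 0.339% and 0.389% of all counts in knockdown replicates 1 to 3, against 0.697%, 0.472% and 0.588% in MKN28 controls, and 0.602%, 0.502% and 0.590% in overexpression libraries, against 0.479%, 0.329% and 0.446% in MKN45 controls. Summed CPM after TMM scaling was 5293, 5968 and 5381 in knockdown libraries, against 5072, 3742 and 4359 in MKN28 controls, so the groups did not overlap after TMM scaling and overlapped without it.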
